A study of Mus musculus with 25 samples.

Results

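The transcript levels of the Eph receptors, the ephrins, the Slit and Robo genes and the netrins with their receptors were examined in the mammillary neuroepithelium of Lhx5 mutant and WT mouse embryos at E10.5. In all, 37 genes of these families were listed by symbol. A gene was measured where the array had a probe set (transcript cluster) annotated with its symbol alone, and the brightest such cluster stood for it. By this rule 36 of the 37 genes were measured, of 18820 named genes in the whole table. Ephb2 had no cluster with a single symbol and was not analysed here. Of the 36, 13 encode ligands and 23 encode receptors.

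The mammillary neuroepithelium is a stretch of the caudal hypothalamic wall that gives rise to the mammillary body, and Lhx5 is a LIM-homeodomain transcription factor expressed there. KO samples, 13 in number, came from embryos labelled Lhx5 KO, which per the study carry on both chromosomes a floxed and non-recombined Lhx5 allele (Lhx5 fl/fl) that acts as a hypomorph. WT samples, 12 in number, came from wild-type embryos, and both groups were of strain C57BL/6 and aged E10.5. Total RNA of each sample was hybridised to 1 array, and whether a sample is 1 embryo or a pool is not given in the sources used here. The comparison asks which transcripts differ before the mutant mammillary body is visibly smaller. All levels below are log2 values from robust multiarray averaging (RMA), so a difference of 1 is a doubling.

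Eph receptors are receptor tyrosine kinases that bind ephrins on the surface of neighbouring cells, and contact of this kind sorts cells at boundaries and repels or attracts growing axons. Ephrin-A proteins are held in the membrane by a lipid anchor and mainly bind EphA receptors, whereas ephrin-B proteins span the membrane and mainly bind EphB receptors. Slit proteins are secreted repellents read by Robo receptors. Netrins are secreted cues that attract through Dcc and Neo1 and repel through the Unc5 receptors, and in the ventral neural tube the floor plate is a source of both netrin and Slit proteins.

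The KO arrays did not behave as a single set. Over 35542 complete probe sets the means of KO replicates 1 to 10 and of KO replicates 11 to 13 differed by a median of 1.33e-06 and by at most 6.33e-05, so every difference between KO and WT equals that between KO replicates 11 to 13 and WT (3 against 12 arrays). The mean level of replicates 1 to 10 against WT is thus tied to that of replicates 11 to 13. Counts over all 13 KO arrays below are descriptions and not added support. The main fit therefore carried a term for KO replicates 1 to 10 (the set term), which leaves each difference as it is and widened its standard error by a median factor of 1.65 relative to genotype alone. Array medians ran from 4.64 to 4.76 and correlations between arrays from 0.985 to 0.997. The Lhx5 cluster, which does not read the protein lost in these embryos, stood at 7.92 ± 0.32 in KO and 7.97 ± 0.22 in WT (SD, n = 13 and 12), a difference of -0.04 ± 0.17 (SE, adjusted p = 0.96). None of the 6 neural progenitor genes and none of the 7 caudal hypothalamus genes used as markers of the dissected tissue lay below the median cluster (4.69). Marker lists of endothelium (8 genes), mesenchyme and neural crest (8 genes), surface ectoderm (6 genes) and erythroid cells (5 genes) were also above it, except for 1 surface ectoderm gene. The list means also differed between KO and WT. On average 0 of the 6 progenitor genes and 2 of the 7 caudal hypothalamus genes were higher in KO, with list means of 8.44 in KO and 8.66 in WT and of 7.13 in KO and 7.34 in WT. The largest differences were those of Sox1 (-0.71) and Rax (-1.27), both listed by the study as lower in KO. In the caudal hypothalamus list Sim1 (0.33) and Lhx1 (0.10) went the other way. An exact permutation test of KO replicates 11 to 13 against WT gave the progenitor and caudal hypothalamus list means p = 0.0462 and 0.022. Only 1 gene of each list, Sox1 and Rax, had an unadjusted p below 0.05 with the set term. As the study had already listed both, these shifts in the list means are not independent of its results. All genes of the endothelium (8 of 8), mesenchyme and neural crest (8 of 8), surface ectoderm (6 of 6) and erythroid (5 of 5) lists were on average higher in KO, by 0.14, 0.15, 0.23 and 0.27 in the list mean. The same permutation test gave these list means p = 0.332, 0.347, 0.187 and 0.316. WT replicate 11 was the lowest of all arrays in the endothelium (6.79) and mesenchyme (7.35) lists. The part of these shifts in the differences of the guidance genes was not tested.

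None of the 36 genes passed an adjusted p of 0.05 with the set term (adjusted p 0.179 to 0.997), where 0.0242% of all 28940 clusters did (0.0138% higher and 0.0104% lower in KO). Without adjustment 5 of the 36 (13.9%) had p below 0.05, against 10.3% of all clusters (6.20% higher and 4.15% lower in KO). These were Efna1 and Slit1, both higher in KO, and Ephb1, Epha6 and Efna5, all lower in KO. With genotype alone the same 5 genes and Efnb2 passed an adjusted p of 0.05, which is 6 of 36 or 16.7%, and 16.7% of all clusters passed as well (9.68% higher and 6.99% lower in KO). The share of these genes that passed thus lay close to that of the array as a whole in both fits. For 31 of the 36 genes the 95% interval of the difference held 0. In tissue RNA of this kind, fewer cells that express a gene and less RNA per cell cannot be told apart.

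The signs of the differences split by role. Of the 13 ligand genes 10 (76.9%) were on average higher in KO, with a median difference of 0.12, and of the 23 receptor genes 17 (73.9%) were lower in KO, with a median of -0.09. Among all clusters 51.8% were above and 48.2% below WT on average, with a median of 0.01. Among the 18820 named genes, each by its brightest cluster as here, 9231 were above and 9589 below WT, with a median of -0.0025. All 3 Slit genes were on average higher in KO (0.19 to 0.66) and all 4 Robo genes lower (-0.36 to -0.08). Over the 36 genes the median size of the difference was 0.13, against 0.08 over all clusters. These signs are counts of genes, most of which did not differ from WT beyond their error, and no test was made of the split. The means of the marker lists of other tissues stood higher in KO, with exact permutation p from 0.187 to 0.347. Those of progenitors and caudal hypothalamus stood lower, as given above.

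**Figure D1:**
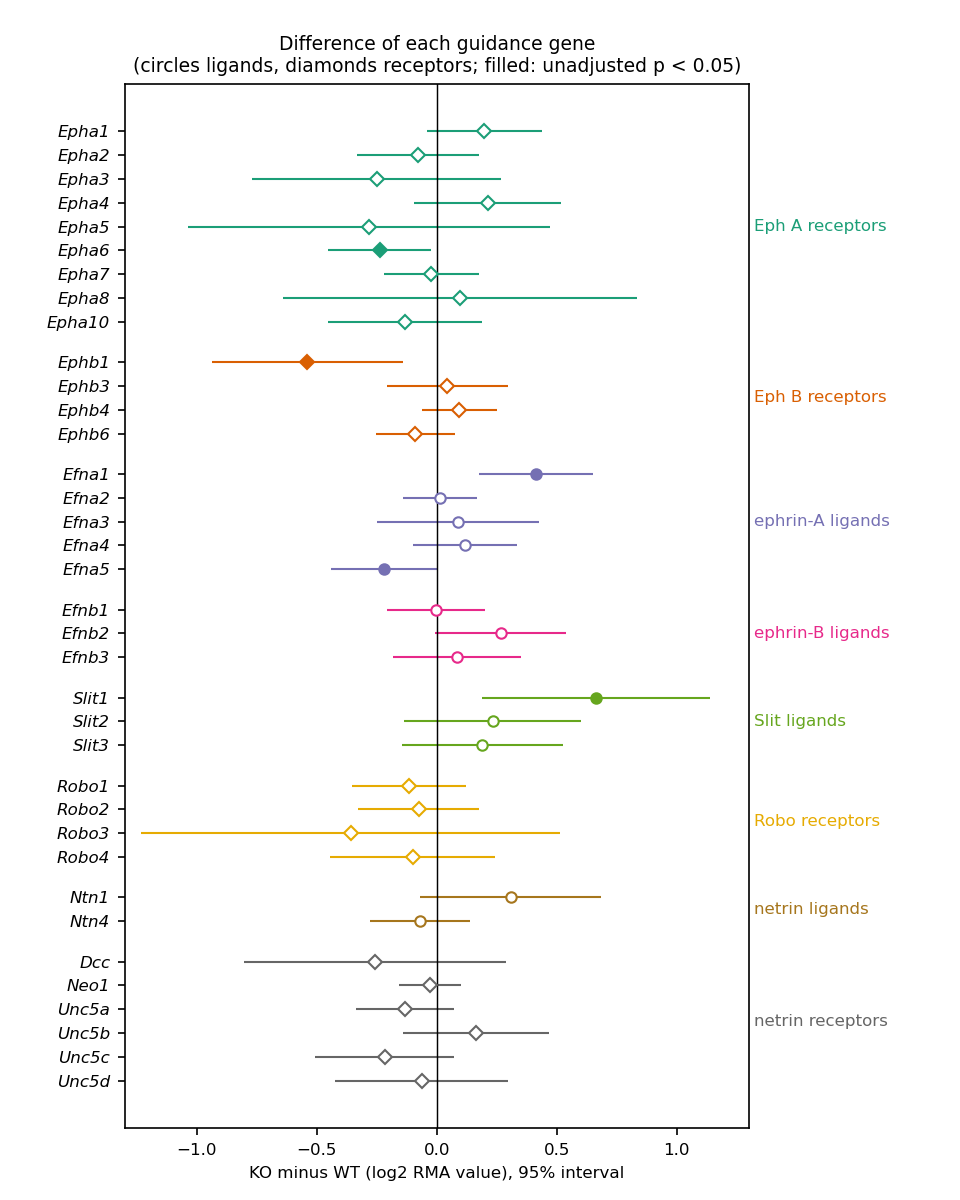
KO minus WT difference on the log2 scale (horizontal axis) for the 36 measured genes, grouped by class. Circles are ligands and diamonds receptors, filled where the unadjusted p was below 0.05, and bars are 95% intervals from the fit with the set term. Efna1, Slit1, Ephb1, Epha6 and Efna5 are the 5 genes whose interval does not hold 0, and Slit1 (0.66) and Ephb1 (-0.54) lie farthest from it.

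The start regions of Efna1 and Ephb1 are shown because these genes had the lowest p among those higher and those lower in KO. Each window holds 250 bases before and 50 after a start site, as given by RefSeq on build GRCm38.p6, and both genes lie on the minus strand. Efna1 is at chr3:89280902-89281201 and Ephb1 at chr9:102354644-102354943. Capitals mark TAATTA, the core letters bound by many homeodomain proteins, which reads the same on both strands.
Efna1: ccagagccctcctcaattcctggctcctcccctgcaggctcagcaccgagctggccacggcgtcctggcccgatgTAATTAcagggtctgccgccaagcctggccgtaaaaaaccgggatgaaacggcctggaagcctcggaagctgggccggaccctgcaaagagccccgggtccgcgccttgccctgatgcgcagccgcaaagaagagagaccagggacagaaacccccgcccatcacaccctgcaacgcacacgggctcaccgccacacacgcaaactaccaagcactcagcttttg
Ephb1: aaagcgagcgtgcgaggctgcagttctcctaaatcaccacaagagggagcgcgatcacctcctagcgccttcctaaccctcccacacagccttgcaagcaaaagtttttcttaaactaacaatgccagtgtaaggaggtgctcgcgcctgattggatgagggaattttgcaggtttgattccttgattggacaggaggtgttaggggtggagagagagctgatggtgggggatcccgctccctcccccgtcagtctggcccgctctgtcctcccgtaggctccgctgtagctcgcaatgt

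The Efna1 window holds TAATTA with its first base at -175 from the start site, and the Ephb1 window does not hold these letters. Windows were found for 32 of the 37 genes, 37 windows in all, and Slit1, Ntn1, Dcc, Efnb3 and Unc5d were not among them. TAATTA occurred in 3 of the 37, at -175 in Efna1, -230 in Epha5 and -101 in Robo3, and in 5.29% of all 32851 windows of this length. Another start-site window of Efna1 lacked it. The GC content was 63.7% in the Efna1 window and 55.7% in the Ephb1 window.

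Among the ephrin-A ligands, Efna1 was the gene with the clearest separation. KO replicates 11 to 13 were at 6.09, 6.16 and 6.25, KO replicates 1 to 10 ran from 5.89 through a median of 6.13 to 6.45, and WT ran from 5.31 through 5.76 to 6.00. Replicates 11 to 13 thus all lay above every WT array. Of all 13 KO arrays, whose set means are tied, 11 lay above every WT array and 13 exceeded the WT median. Efna1 averaged 6.17 ± 0.17 in KO and 5.75 ± 0.20 in WT (SD, n = 13 and 12), which is 0.41 ± 0.12 higher or 1.33-fold (95% interval 0.17 to 0.65). The unadjusted p was 0.00147 and the adjusted p 0.179 in limma with the set term. The exact permutation test of replicates 11 to 13 against WT gave p = 0.0022, two-sided and the smallest that the 455 splits allow. Efna1 was the only 1 of the 36 genes (2.78%) in which replicates 11 to 13 lay above every WT array, against 0.536% of all clusters, and in 0 of the 36 did they lie below every WT array, against 0.619%. Leaving out 1 of KO replicates 1 to 10 cannot move a difference in this fit. Of the 15 fits that left out 1 of the other arrays, all 15 gave Efna1 an unadjusted p below 0.05, with differences from 0.37 to 0.45.

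Efna5, an ephrin-A that acts in retinal and thalamic axon mapping, leaned the other way. Its values were 8.69, 8.49 and 8.45 in KO replicates 11 to 13, 8.18, 8.55 and 8.72 (lowest, median and highest) in KO replicates 1 to 10, and 8.43, 8.78 and 9.07 in WT. All 13 KO arrays lay under the WT median, but replicates 11 to 13 stayed within the WT range. The means were 8.54 ± 0.15 in KO and 8.76 ± 0.18 in WT, a difference of -0.22 ± 0.11 (p = 0.0498, adjusted p = 0.482, limma), and p was 0.05 or more in 10 of those 15 fits. The exact permutation test gave p = 0.0725. The other ephrin-A genes differed by 0.01 ± 0.07 (Efna2), 0.09 ± 0.16 (Efna3) and 0.12 ± 0.11 (Efna4). Efna1, Efna3 and Efna4 are adjacent coding genes on chromosome 3. Their differences were not compared with each other.

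Of the ephrin-B ligands, Efnb2, which marks arteries as well as many neural boundaries, had values of 8.28, 8.48 and 8.07 in KO replicates 11 to 13. KO replicates 1 to 10 ran from 7.96 through a median of 8.24 to 8.64, and WT from 7.71 through 8.02 to 8.30. The groups overlapped, with 12 of 13 KO arrays above the WT median. Efnb2 averaged 8.28 ± 0.22 in KO and 8.01 ± 0.20 in WT, a difference of 0.27 ± 0.13 with a 95% interval of -0.01 to 0.54 (p = 0.0553, adjusted p = 0.496, limma). With genotype alone its adjusted p was 0.0243, and the exact permutation test gave p = 0.0703. Without KO replicate 12 the difference was 0.16 and without KO replicate 13 it was 0.37, and p was 0.05 or more in 11 of those 15 fits. The mean of the endothelium list ran from 7.38 to 7.84 in KO and from 6.79 to 7.65 in WT, where the lowest array was replicate 11 and every other was at 7.43 or above. All 8 of its genes were on average higher in KO, with Pecam1 and Cdh5 past an adjusted p of 0.05 with genotype alone and 0 past it with the set term, and the list's part in the Efnb2 values was not tested. Efnb1, on the X chromosome, and Efnb3 differed by -0.00 ± 0.10 and 0.08 ± 0.13.

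Ephb1, an ephrin-B receptor known for steering retinal axons to the same side of the brain, had the largest negative difference of the 36 genes. KO replicates 11 to 13 stood at 6.57, 6.04 and 6.55. KO replicates 1 to 10 ran from 5.81 through 6.48 to 6.67, and WT from 6.15 through 6.95 to 7.42. All 13 KO arrays lay below the WT median, but of replicates 11 to 13 only replicate 12 was below every WT array. The means were 6.39 ± 0.27 in KO and 6.93 ± 0.35 in WT, so Ephb1 was 0.54 ± 0.19 lower on the log2 scale in KO, or 1.45-fold (p = 0.00965, adjusted p = 0.303, limma). The exact permutation test gave p = 0.0264. A dimmer cluster of the same gene averaged 4.38 ± 0.30 in KO and 4.83 ± 0.24 in WT, a difference of -0.45 ± 0.17 (p = 0.0141, adjusted p = 0.331). The first cluster depended on replicate 12, without which the difference was -0.37 (p = 0.115). Ephb3 and Ephb4 differed by 0.04 ± 0.12 and 0.09 ± 0.08, and Ephb6, whose kinase domain lacks activity, by -0.09 ± 0.08.

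Epha6 was the only EphA gene with an unadjusted p below 0.05, and it was dim. Its level was 3.12, 3.24 and 3.54 in KO replicates 11 to 13, 2.87 to 3.62 (median 3.34) in KO replicates 1 to 10 and 3.33 to 3.78 (median 3.52) in WT. Replicates 11 and 12 were below every WT array and replicate 13 was within their range. The averages of 3.30 ± 0.20 in KO and 3.54 ± 0.11 in WT lay under the median cluster, and the difference was -0.24 ± 0.10 (p = 0.0314, adjusted p = 0.426, limma). The exact permutation p was 0.0198. Without KO replicate 11 the difference was -0.15 (p = 0.232), and without KO replicate 12 it was -0.21 (p = 0.109).

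Epha5, a receptor of ephrin-A ligands on many forebrain axons, had the largest EphA difference but one of the widest spreads. KO replicates 11 to 13 were at 6.19, 5.66 and 6.57, KO replicates 1 to 10 ran from 5.14 through 6.14 to 7.27, and WT from 5.71 through 6.36 to 7.23. The ranges overlapped almost whole. The means of 6.14 ± 0.65 in KO and 6.42 ± 0.54 in WT differed by -0.28 ± 0.37 (p = 0.445, adjusted p = 0.843), and by -0.05 without KO replicate 12 and -0.50 without KO replicate 13. Epha4, a receptor that binds ephrins of both classes, averaged 8.41 ± 0.24 in KO and 8.20 ± 0.24 in WT (0.21 ± 0.15, adjusted p = 0.663), and Epha3 averaged 7.94 ± 0.46 in KO and 8.19 ± 0.35 in WT (-0.25 ± 0.25, adjusted p = 0.791). Epha1 was dim, with a difference of 0.20 ± 0.12 (p = 0.101 in limma, exact permutation p = 0.0484). Epha2, Epha7, Epha8 and Epha10 differed by -0.08 ± 0.12, -0.02 ± 0.10, 0.10 ± 0.36 and -0.13 ± 0.16.

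**Figure D2:**
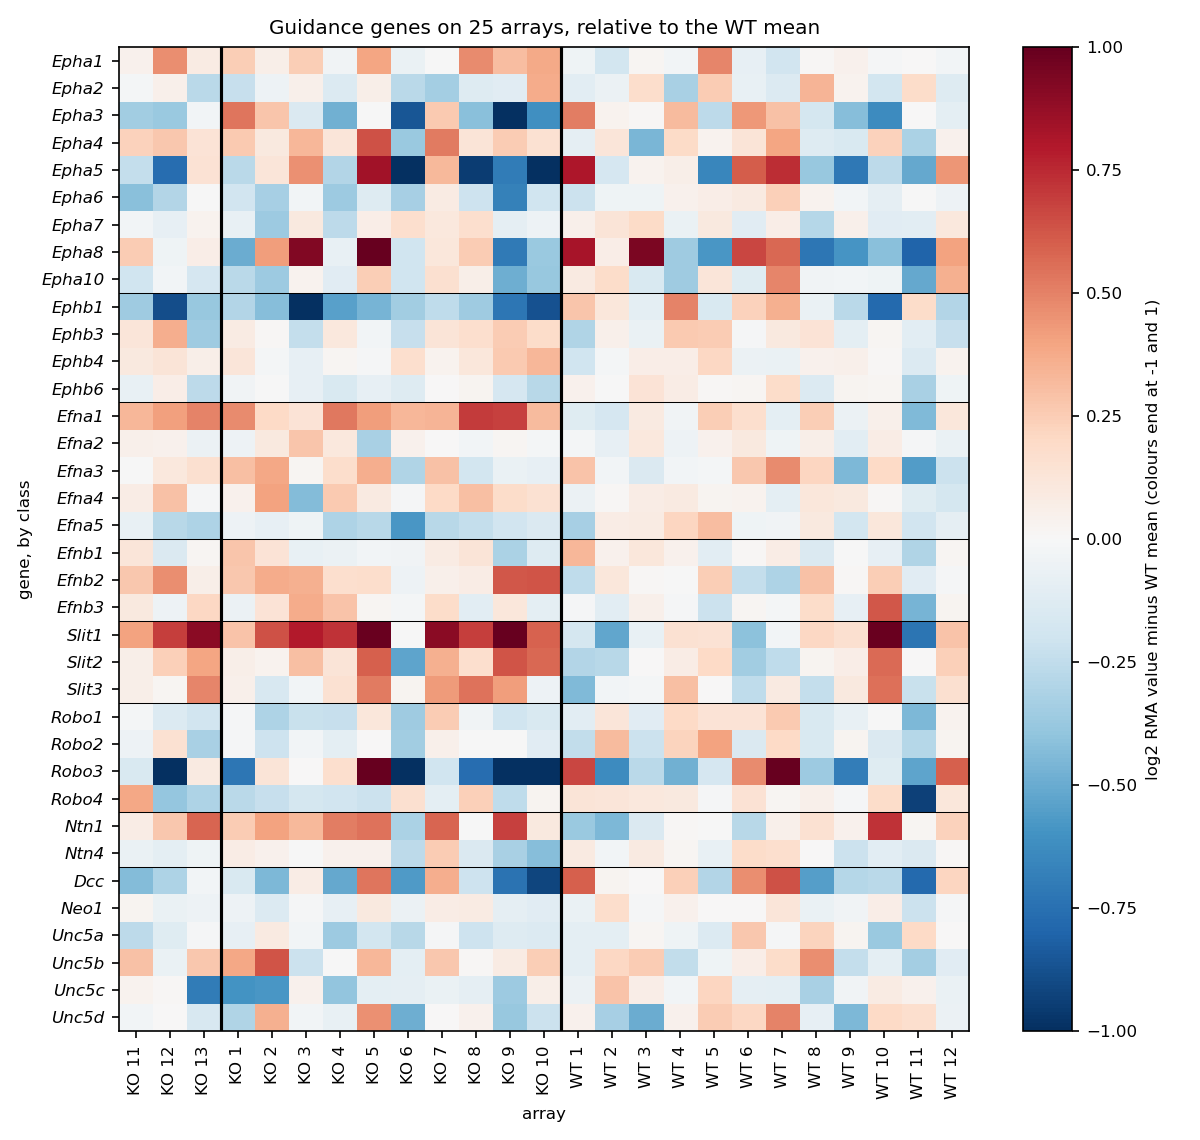
Each measured gene (rows, grouped by class) on each array (columns, KO arrays left of WT arrays), as its log2 value minus the mean of the WT arrays for that gene. Efna1 is above its WT mean across the KO arrays and Ephb1 below it, whereas Robo3, Epha5, Epha8 and Dcc vary as much within KO and within WT as between them.

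Slit1, a secreted repellent, had the largest difference of the 36 genes. The study also listed Slit1 as higher in KO on these arrays, so its difference here is not independent of that list. Slit1 was at 8.38, 8.67 and 8.88 in KO replicates 11 to 13. KO replicates 1 to 10 ran from 7.98 through a median of 8.68 to 9.01, and WT from 7.25 through 8.04 to 8.97. Of the 13 KO arrays 12 exceeded the WT median, but WT replicate 10, at 8.97, was above all of replicates 11 to 13. Slit1 averaged 8.64 ± 0.29 in KO and 7.98 ± 0.44 in WT, a difference of 0.66 ± 0.23 or 1.58-fold, with a 95% interval of 0.19 to 1.14 (p = 0.00793, adjusted p = 0.284, limma). The exact permutation test gave p = 0.033. It was the 1 gene of the 36 past 1.5-fold (2.78%), against 0.553% of all clusters, or 0.418% with an unadjusted p below 0.05 as well. Without WT replicate 10 the difference was 0.75 (p = 7e-04, adjusted p = 0.133), and without KO replicate 13 it was 0.54 (p = 0.0583). Slit2 averaged 9.51 ± 0.31 in KO and 9.28 ± 0.27 in WT (0.23 ± 0.18, adjusted p = 0.703), and Slit3 averaged 8.55 ± 0.25 in KO and 8.36 ± 0.27 in WT (0.19 ± 0.16, adjusted p = 0.739).

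None of the 4 Robo receptors had an unadjusted p below 0.05. Robo3, a divergent receptor that in commissural axons counters Slit repulsion, was dim and the most variable of the 36 genes among WT arrays. Its values were 4.71, 3.86 and 4.95 in KO replicates 11 to 13, 3.66, 4.41 and 6.11 (lowest, median and highest) in KO replicates 1 to 10 and 4.18, 4.65 and 6.38 in WT. The groups overlapped, and the difference of -0.36 ± 0.42 (adjusted p = 0.824) was -0.03 without KO replicate 12 and -0.58 without KO replicate 13. Robo1 averaged 9.83 ± 0.17 in KO and 9.94 ± 0.19 in WT (-0.12 ± 0.12), with 11 of 13 KO arrays under the WT median. Robo2 and the endothelial receptor Robo4 differed by -0.08 ± 0.12 and -0.10 ± 0.17.

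Ntn1, the netrin made by the floor plate, was at 8.86, 9.06 and 9.38 in KO replicates 11 to 13. KO replicates 1 to 10 ran from 8.48 through 9.16 to 9.47, and WT from 8.34 through 8.81 to 9.52. The ranges overlapped, and the highest array of all was WT replicate 10. Ntn1 averaged 9.10 ± 0.29 in KO and 8.79 ± 0.31 in WT, a difference of 0.31 ± 0.18 with a 95% interval of -0.07 to 0.69 (p = 0.107, adjusted p = 0.591, limma). It was 0.37 without WT replicate 10 (p = 0.0296, adjusted p = 0.397) and 0.17 without KO replicate 13 (p = 0.439). Ntn4, a netrin of basement membranes, differed by -0.07 ± 0.10.

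Dcc, the main attractive netrin receptor, was at 8.41, 8.54 and 8.81 in KO replicates 11 to 13, from 7.93 through 8.51 to 9.37 in KO replicates 1 to 10 and from 8.06 through 8.86 to 9.48 in WT. The groups overlapped, and the means of 8.58 ± 0.42 in KO and 8.84 ± 0.45 in WT differed by -0.26 ± 0.27 (adjusted p = 0.794), and by -0.17 without KO replicate 11. Neo1, a relative of Dcc, had the narrowest error of the 36 genes, with 9.64 ± 0.08 in KO, 9.67 ± 0.10 in WT and a 95% interval of the difference of -0.16 to 0.10. The repulsive receptors Unc5a, Unc5b and Unc5c differed by -0.13 ± 0.10, 0.16 ± 0.15 and -0.22 ± 0.14, with adjusted p from 0.626 to 0.758. Unc5d was dim, and its clusters had opposite signs (-0.06 ± 0.18 and 0.09 ± 0.15).

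**Figure D3:**
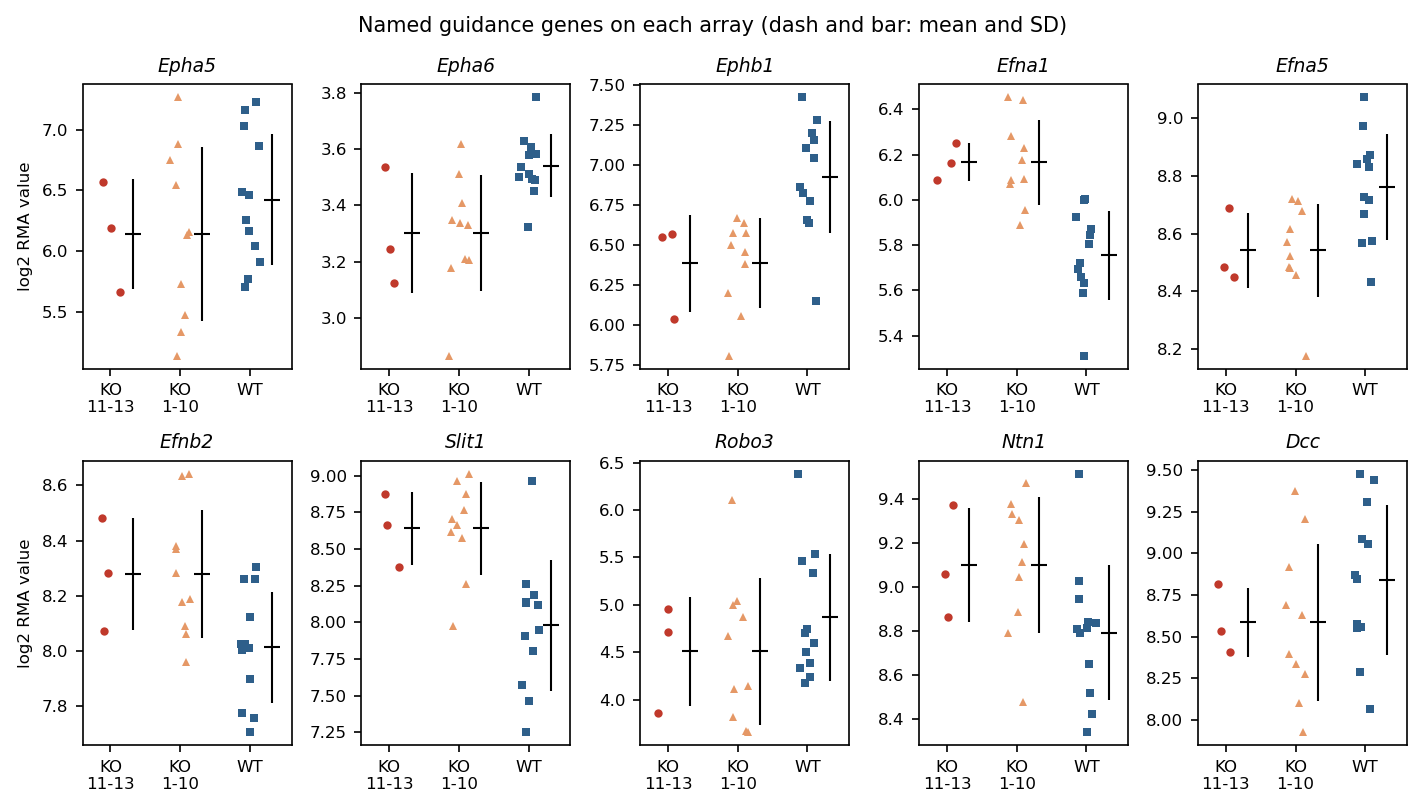
Log2 values of the 10 genes described by array, with KO replicates 11 to 13, KO replicates 1 to 10 and WT side by side in each panel. Each point is 1 array, with the mean (dash) and SD (bar) beside each set. In Efna1 replicates 11 to 13 clear every WT array, and in Slit1 and Ntn1 a single WT array, replicate 10, lies above all of them.

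These genes varied more between arrays of the same group than most. The median SD was 0.221 over the 36 genes among KO replicates 1 to 10 and 0.219 among WT, against 0.149 and 0.143 over all clusters. Among WT arrays the SD was highest for Robo3 (0.67), Epha8 (0.65), Epha5 (0.54), Dcc (0.45) and Slit1 (0.44), and lowest for Efna2 (0.07). The variation of the 10 genes described above was set against 2 marker lists whose members are other genes, young neurons (6 genes, among them Dcx, Stmn2 and Nefl) and floor plate (7 genes, among them Shh, Foxa2 and Corin), within KO replicates 1 to 10 and within WT. In all, 40 relations were computed, and 10 had an adjusted permutation p below 0.05 for Pearson's r. The p-values printed with them are those of r, and the rank correlation rho stands beside it. The relations were chosen after the values had been seen.

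Dcc, Robo3 and Epha5 followed the young neuron list. For Dcc Pearson's r was 0.876 within KO replicates 1 to 10 (rho = 0.879, n = 10, permutation p = 0.00129, adjusted p = 0.0103) and 0.76 within WT (rho = 0.734, n = 12, permutation p = 0.00411, adjusted p = 0.0183). Robo3 gave 0.861 in KO replicates 1 to 10 (rho = 0.842, permutation p = 0.00113, adjusted p = 0.0103) and 0.697 in WT (rho = 0.727, permutation p = 0.0116, adjusted p = 0.0464). Epha5 gave 0.942 in KO replicates 1 to 10 (rho = 0.939, permutation p = 5e-05, adjusted p = 0.001), and its 0.67 in WT (rho = 0.664, permutation p = 0.0159) had an adjusted p of 0.0578. With the 2 arrays farthest from the median of the list left out, r was 0.748 and 0.509 for Dcc, 0.823 and 0.57 for Robo3, and 0.89 and 0.56 for Epha5, in KO replicates 1 to 10 and in WT. The list itself ran from 7.70 to 9.29 in KO and from 7.76 to 9.40 in WT. On average 0 of its 6 genes were higher in KO, so it leaned the same way as Dcc, Robo3 and Epha5 (-0.18 in the list mean, exact permutation p = 0.516), with 0 genes at an unadjusted p below 0.05, and its part in the differences of these 3 genes was not tested.

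Ntn1 followed the floor plate list, and Slit1 did so less firmly. Ntn1 had r = 0.866 within KO replicates 1 to 10 (rho = 0.83, n = 10, permutation p = 0.00159, adjusted p = 0.0106) and 0.953 within WT (rho = 0.825, n = 12, permutation p = 4e-05, adjusted p = 0.001), and 0.898 among WT without replicate 10 (adjusted p = 0.00873). Slit1 had r = 0.881 in KO replicates 1 to 10 (rho = 0.758, permutation p = 0.00105, adjusted p = 0.0103) and 0.832 in WT (rho = 0.783, permutation p = 0.00208, adjusted p = 0.0119), and 0.631 among WT without replicate 10 (adjusted p = 0.138). By rank, Slit1 in KO replicates 1 to 10 did not pass adjustment (permutation p of rho = 0.0151, adjusted p = 0.0604). Ephb1 ran against the list in WT (r = -0.808, rho = -0.755, permutation p = 0.00326, adjusted p = 0.0163), but without replicate 10 r was -0.572 (adjusted p = 0.237), and in KO replicates 1 to 10 it was -0.161. With the 2 arrays farthest from the median of the list left out, r was 0.6 and 0.856 for Ntn1 and 0.629 and 0.529 for Slit1, in KO replicates 1 to 10 and in WT, and -0.638 for Ephb1 in WT. WT replicate 10 had the highest floor plate level of all arrays (8.20), the highest Slit1 and Ntn1 of WT and the lowest Ephb1 of WT.

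The floor plate list had the largest shift in mean of the 8 lists, 7.79 in KO and 7.28 in WT. Its largest differences were those of Corin (0.98) and Ferd3l (0.92). Both are among the genes the study listed as higher in KO on these arrays, so the shift is not independent of those results. Its mean ran from 7.17 to 8.15 in KO, with 7.59, 7.82 and 7.96 in replicates 11 to 13, and from 6.86 to 8.20 in WT, with a median of 7.26. All 7 of its genes were on average higher in KO and 4 of them had an unadjusted p below 0.05 (Corin, Ferd3l, Lmx1b and Foxa1), but 0 passed adjustment with the set term. Of all clusters 10.3% had such a p (6.20% higher in KO). The exact permutation test of the list mean gave p = 0.033. This list moved with Slit1 and Ntn1, and its part in their differences was not tested.

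**Figure D4:**
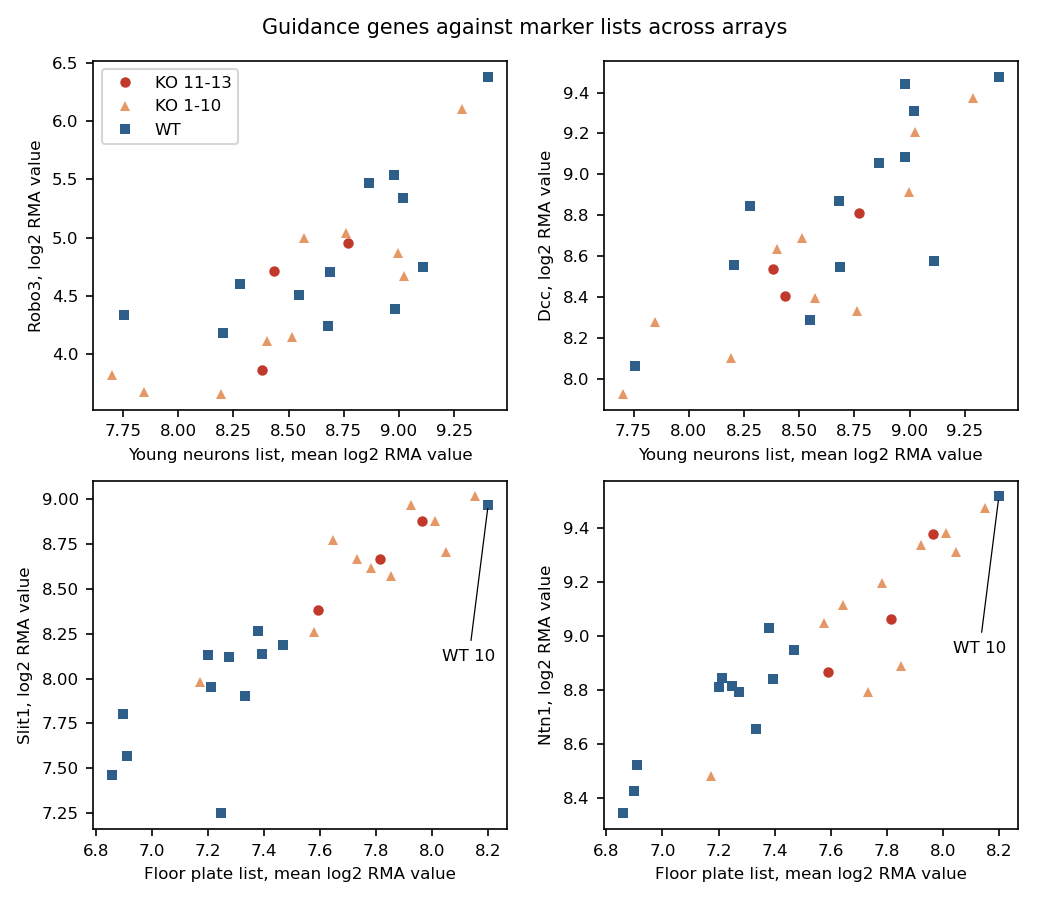
Log2 values of Robo3 and Dcc against the mean of the young neuron list, and of Slit1 and Ntn1 against the mean of the floor plate list. Each point is 1 array (circles for KO replicates 11 to 13, triangles for KO replicates 1 to 10, squares for WT). Levels climb with the list in every panel, and WT replicate 10 stands at the high end of the floor plate list, at 8.20.

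Of 45 other genes of these pathways, which act in signalling from the receptors or as alternative ligands and receptors, 41 were measured. With the set term 0 passed an adjusted p of 0.05, and 3 (7.32%) had an unadjusted p below 0.05, all higher in KO, against 10.3% of all clusters (6.20% higher in KO). Prrg4, a small membrane protein listed as a counterpart of the fly Robo regulator Commissureless, averaged 4.56 ± 0.23 in KO and 4.09 ± 0.18 in WT (0.47 ± 0.13, p = 0.00124, adjusted p = 0.179, limma). Its replicates 11 to 13 lay above every WT array (exact permutation p = 0.0022), although its mean lay under the median cluster. Myo10, a motor protein that carries Dcc into filopodia, averaged 9.03 ± 0.07 in KO and 8.85 ± 0.11 in WT (0.18 ± 0.07, p = 0.0107, adjusted p = 0.307). Mcam, an adhesion molecule of endothelium that also binds netrin, averaged 7.67 ± 0.15 in KO and 7.44 ± 0.17 in WT (0.23 ± 0.10, p = 0.0347, adjusted p = 0.438). Of the 13 measured partners of Eph receptors and ephrins 11 were on average lower in KO, with a median of -0.10, where 48.2% of all clusters were. None of the 13 had an unadjusted p below 0.05, and no test was made of this count.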

How the data were processed

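Total RNA was measured on Affymetrix Mouse Gene 1.1 ST arrays, 1 per sample. The authors deposited log2 values made by RMA (Affymetrix Expression Console 1.0, affy and R 2.7.0 in the submitters' processing notes). The deposited columns that were classed as a score hold the same log2 values, save misprinted cells. In all, 14 cells above 14 were set missing, none of them in the genes described. An adjustment between batches is not given in the sources used here. Of 35556 probe sets, 6616 with an identifier below the lowest annotated one were left out. The other 28940 clusters were tested (21218 with a single symbol, 1881 with several, 5841 with none).

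The model had genotype and the set term and was fitted per cluster with limma 3.58.1 under R 4.3.3, with moderated variances, two-sided p-values, 95% intervals and Benjamini-Hochberg adjustment over all clusters. An exact permutation test over 455 splits compared KO replicates 11 to 13 with WT. Relations used 100000 permutations (smallest p 1e-05) and adjustment over all 40. On simulated data for KO against WT with 28940 clusters, the set-term fit recovered 78 of 100 genes changed 1.5-fold and 98 of 100 changed 2-fold, with 8 false calls, and genotype alone recovered 97 and 99 with 1868 false calls. The changed clusters were picked at random, and the simulated noise was independent between clusters. The guidance genes had a median SD of 0.219 among WT, against 0.143 over all clusters. These recovery counts therefore do not carry over to them. Python 3.11.15, SciPy 1.17.1, NumPy 2.4.6 and matplotlib 3.10.9 were used. Start-site windows came from RefSeq.

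Genes were described by array where the unadjusted p with the set term, or the adjusted p with genotype alone, was below 0.05, or where the difference was the largest of its class. The genes and lists were chosen with earlier results of these data known. Samples are biological replicates per the labels, which do not say whether each is a separate embryo. The p-values of KO against WT thus judge each difference against the spread between these samples. The number of arrays limits the precision. The alternatives were genotype alone, KO replicates 11 to 13 with WT only, repeated quantile normalization, centring, dim clusters left out, array weights, limma-trend, a replicate block, embryo sex, the mean of a gene's clusters, other thresholds and each array left out.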

Additional observations from a re-analysis of the deposited data

How the results depend on the processing

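With the set term 0 of the 36 guidance genes passed in each of the 25 fits that left out 1 array (0 to 0), and likewise 0 of the 41 other pathway genes (0 to 0), though leaving out 1 of KO replicates 1 to 10 alters only the error. Genotype alone called 6 guidance genes, 9 other pathway genes and 4825 of all clusters, where the set term called 0, 0 and 7. An unadjusted p below 0.05 gave 5, 3 and 2995, with 1.5-fold as well 1 guidance gene and 121 of all clusters, and an adjusted p below 0.10 gave 36 of all clusters. The count over all clusters was 1 after repeated quantile normalization, 12 after centring, 4 without dim clusters and 30 with array weights, and it ran from 0 without KO replicate 13 to 26 without WT replicate 10. The cause of these shifts was not tested. Pairing by replicate number was not assumed, since correlations of same-numbered arrays ran from -0.335 to 0.428, with 4 of 12 above 0.1 and 0 best with their own number. With the replicate number as a block 0 guidance genes and 0 of all clusters were called, and differences were 0.43 for Efnb2, 0.04 for Ntn1, -0.03 for Efna5, -0.09 for Dcc, -0.46 for Epha5 and -0.62 for Robo3. No alternative reversed the sign of any of the 10 genes described by array. The relations past adjustment numbered 10 of 40, and 10, 10, 9 and 9 after quantile normalization, after centring, with ranks and without WT replicate 10. These 4 settings were chosen after seeing the data.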
